A study of Zea mays with 6 samples.

Results

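The nuclear genes for the light-harvesting antenna, the photosystems and the Calvin cycle were followed in maize leaves through 16 probe sets, of 17621 non-control probe sets on the array. They stand for 13 genes: 5 antenna genes in 8 probe sets, 2 genes of photosystem II, 3 of photosystem I, and 1 each for the Rubisco small subunit, Rubisco activase and fructose-1,6-bisphosphatase. A probe set is a group of short probes that together report 1 transcript, and it was counted here when its gene symbol, a synonym of that symbol or its title named one of these functions. The platform annotation named 14 of them. The other two, CAB2 and fructose-1,6-bisphosphatase, were named by titles in a gene list that the study drew up on these same arrays. No probe set was found by this rule for plastocyanin, the cytochrome b6-f complex, the chloroplast ATP synthase, phosphoribulokinase or sedoheptulose bisphosphatase.

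Leaves were sampled in the field and their RNA was put on 6 arrays, 1 for each variety in each of 3 conditions: T2 drought, T2 control and T1 control (called T1 below). The varieties were DKC6575, a hybrid that carries the MON810 insertion (a CryIAb insecticidal gene under the constitutive 35S promoter), and Tietar, its near-isogenic counterpart without the insertion. T1 was the V8 vegetative stage and T2 was silking. Drought plants stood in a field plot that was not irrigated after the V6 stage (0% of field capacity). Control plants stood in another plot irrigated to 100% of field capacity. Plot and irrigation therefore cannot be told apart, and neither can plant age and the date of sampling. The sources used here do not say how many plants went into each array. With 1 array per group, the varieties served as the only replicates of a condition. The p-values rest on how far the 2 varieties differed in their changes between conditions. This spread was estimated once from all 6 arrays (2 residual degrees of freedom) and adjusted towards the spread of probe sets of like intensity.

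In photosynthesis, antenna proteins bind chlorophyll and pass light energy to photosystem II, which splits water, and on to photosystem I, which reduces ferredoxin. The Calvin cycle then fixes CO2 through Rubisco, an enzyme that Rubisco activase keeps free of inhibiting sugar phosphates. In a C4 leaf such as that of maize, Rubisco is concentrated in the bundle sheath, and photosystem II is most abundant in the mesophyll. Transcripts of this machinery are among the most abundant in a green leaf. In RNA from whole leaves, fewer cells of a type and less RNA per cell cannot be told apart.

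Endosperm RNA was looked for with 14 zein probe sets, which mark the seed endosperm: the highest of them had a signal between 9.07 and 23.7 on each array. These values bear on endosperm alone and not on other tissues. The 15 probe sets with pollen or profilin names had a median signal of 250 (DKC6575) and 151 (Tietar) in T2 drought, 229 and 103 in the T2 control, and 17.9 and 21.9 at T1. Signals on every array had a trimmed mean of 500. The brightest probe sets did not keep a constant level under this scaling: the highest signal on an array was 18647 and 17299 in T2 drought (DKC6575, then Tietar), 22049 and 28195 in the T2 control, and 27730 and 29441 at T1. The log2 ratio of the 3-prime to the 5-prime actin control, a sign of RNA quality, was 4.28 and 4.25 in T2 drought, 4.57 and 4.67 in the T2 control and 4.66 and 4.65 at T1. The 3-prime signal was thus far above the 5-prime signal on every array, and the ratio was lowest on both drought arrays. The part of this in the results was not tested.

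**Figure D1:**
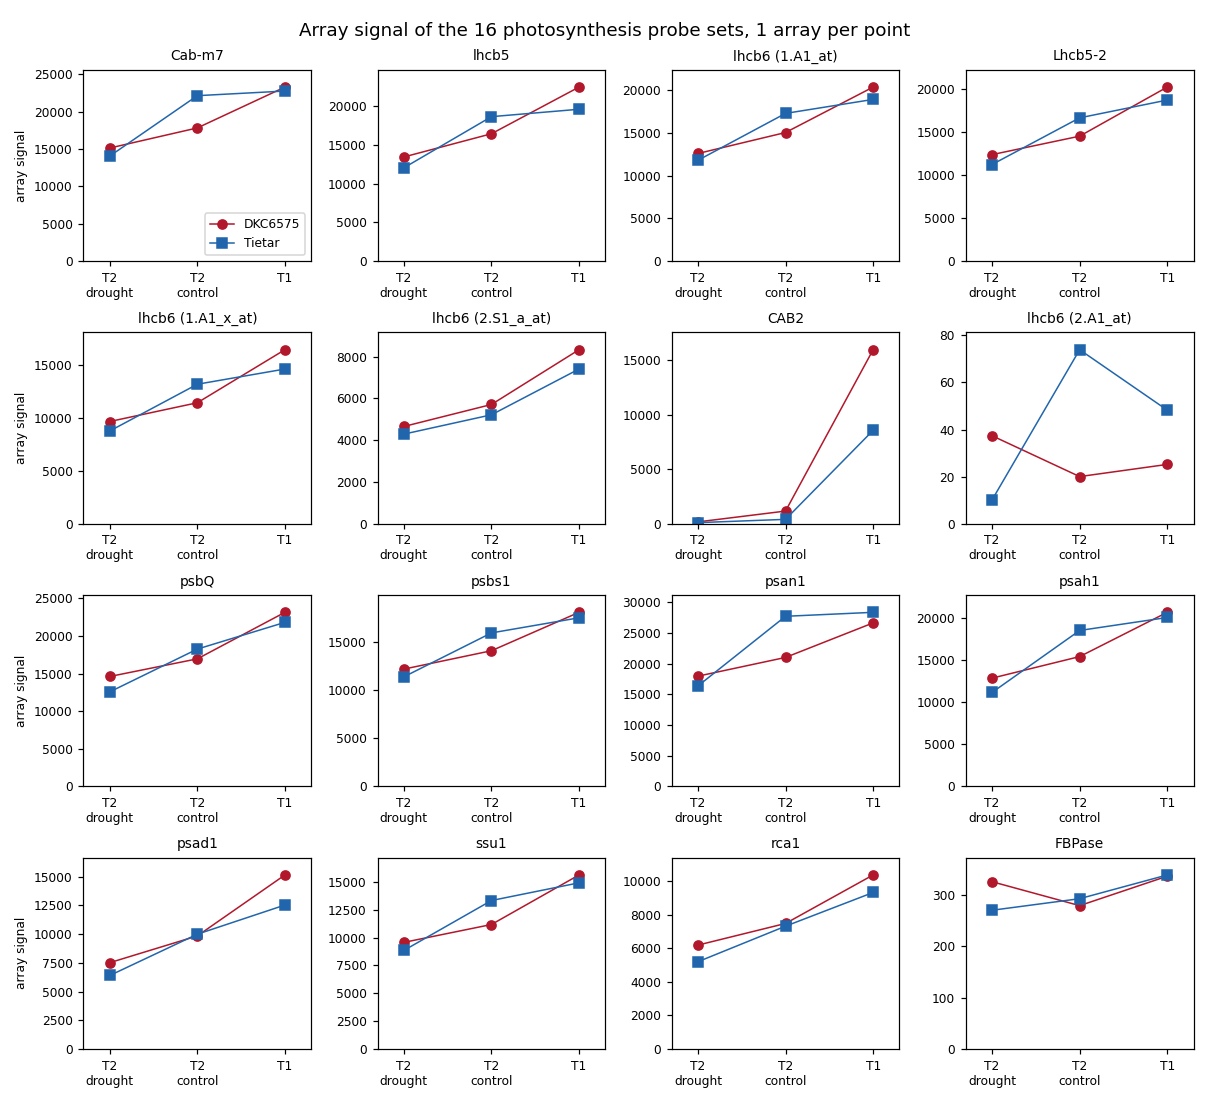
Array signal (vertical axis, linear, starting at 0) of each of the 16 probe sets in T2 drought, T2 control and T1, with DKC6575 as circles and Tietar as squares, 1 array per point. In 13 panels both drought arrays lie below both T2 control arrays, and these below both T1 arrays (in 9 after cyclic loess); CAB2 drops to near the axis at T2, while fructose-1,6-bisphosphatase stays between 270 and 338.

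Of the 16 probe sets, 13 had the same order in both varieties with no overlap: both T2 drought arrays lay below both T2 control arrays, which lay below both T1 arrays. Of all probe sets 4.32% showed this order. After cyclic loess, which removes differences between arrays that follow brightness, 9 of the 16 showed it, against 4.78% of all, and after quantile normalization 5, against 5.04%. The 3 others were fructose-1,6-bisphosphatase, psan1 and a dim probe set of lhcb6. High signal and this order went together on these arrays, since 252 of the 608 other probe sets with a mean log2 signal above 12 (41.4%) showed it too, against 12 of 13 photosynthesis probe sets of that brightness. Here and below, the 608 were not matched to the 13 in brightness. Between 12 and 13 lay 367 of all probe sets, but only 2 of the 13.

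Among the antenna genes, CAB2 (chlorophyll a-b binding protein 2) stood apart. Its probe set had a signal of 175 in DKC6575 and 107 in Tietar in T2 drought, 1169 and 408 in the T2 control, and 15988 and 8584 at T1. No array of 1 condition overlapped with those of another, and drought arrays held 1.1% (DKC6575) and 1.24% (Tietar) of the T1 signal of their variety. Over both varieties CAB2 fell by 4.08 on the log2 scale in T2 control leaves against T1 leaves (17.0-fold, SE 0.18, adjusted p = 1.09e-04, limma with Benjamini-Hochberg adjustment over all probe sets). It fell by a further 2.34 in T2 drought against T2 control (5.05-fold, SE 0.18, adjusted p = 0.0116). Because CAB2 was named through a list selected for change on these arrays, its fall is no independent evidence of the direction. Of the other probe sets of the same transcript cluster, which have no gene name here, one was dim, with 142 (DKC6575) and 103 (Tietar) in T2 drought, 236 and 221 in the T2 control, and 121 and 222 at T1. Its T1 arrays were not the highest. The other, a bright one, had 13458 (DKC6575) and 10552 (Tietar) in T2 drought, 19816 and 21241 in the T2 control, and 26728 and 26841 at T1.

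The other bright antenna probe sets kept at least 55.9% of their T1 signal on every array. Cab-m7, another chlorophyll a/b-binding protein of the antenna, had 15136 (DKC6575) and 14061 (Tietar) in T2 drought, 17829 and 22142 in the T2 control, and 23292 and 22762 at T1. The lhcb5 probe set, for the minor antenna protein CP26 of photosystem II, had 13464 and 12060 in T2 drought, 16465 and 18673 in the T2 control, and 22495 and 19629 at T1. Both genes had their lowest values in T2 drought, with no overlap between conditions. Lhcb5-2 had 12369 and 11221 in T2 drought, 14512 and 16638 in the T2 control, and 20210 and 18703 at T1, the same order once more.

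The gene lhcb6 encodes CP24, a minor antenna protein that links outer light-harvesting complexes to the photosystem II core, and it is measured by 4 probe sets. The first had 12596 (DKC6575) and 11802 (Tietar) in T2 drought, 15050 and 17286 in the T2 control, and 20365 and 18922 at T1. The second, whose probes can also match related transcripts (x_at), had 9691 and 8794 in T2 drought, 11470 and 13224 in the T2 control, and 16496 and 14665 at T1. Both differ in the Tietar T2 control from the third, which had 4659 and 4294 in T2 drought, 5713 and 5219 in the T2 control, and 8336 and 7411 at T1. In Tietar the third probe set kept 70.4% of the T1 signal in the T2 control, against 91.4% for the first and 90.2% for the second. The fourth was dim, with signals from 10 to 74 in no order of condition.

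**Figure D2:**
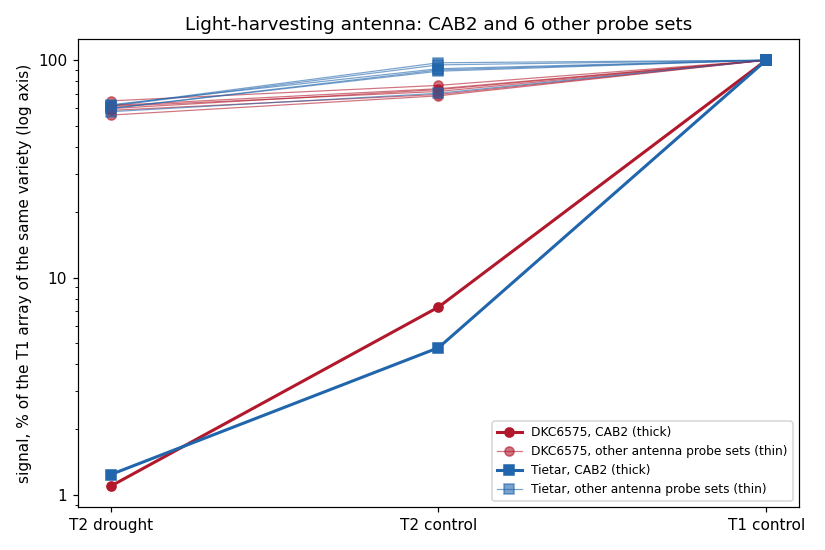
Signal of 7 antenna probe sets as a percentage of the T1 array of the same variety (log axis), for T2 drought, T2 control and T1. CAB2 (thick lines) lies at 1.1% and 1.24% in T2 drought and 7.31% and 4.75% in the T2 control (DKC6575, then Tietar), while the 6 other probe sets (thin lines) lie between 55.9% and 97.3%.

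Photosystem II was represented by psbQ and psbs1. The psbQ product, oxygen-evolving enhancer protein 3, sits on the lumen side of the water-splitting complex. Its signal was 14605 (DKC6575) and 12561 (Tietar) in T2 drought, 16949 and 18247 in the T2 control, and 23129 and 21797 at T1. The psbs1 product (CP22) is needed to dissipate excess light energy as heat, and its signal was 12176 and 11373 in T2 drought, 14082 and 15932 in the T2 control, and 18068 and 17502 at T1. Both genes were lowest in T2 drought and highest at T1 in each variety.

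Photosystem I was represented by psad1, psah1 and psan1. The stromal subunit PSI-D, which docks ferredoxin, is encoded by psad1, with 7514 (DKC6575) and 6399 (Tietar) in T2 drought, 9844 and 9993 in the T2 control, and 15146 and 12530 at T1. Apart from CAB2 and the dim lhcb6 probe set, it kept the smallest share of its T1 signal, 49.6% (DKC6575) and 51.1% (Tietar) in T2 drought. PSI-H, a subunit on the side where light-harvesting complexes can attach, is encoded by psah1, with 12839 and 11141 in T2 drought, 15395 and 18491 in the T2 control, and 20643 and 20031 at T1. The lumenal subunit PSI-N is encoded by psan1, with 17955 and 16364 in T2 drought, 21006 and 27706 in the T2 control, and 26629 and 28351 at T1. For psan1 the T2 control and T1 arrays overlapped, because the Tietar T2 control array (27706) lay above the DKC6575 T1 array (26629).

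In the Calvin cycle, the Rubisco small subunit gene ssu1 had 9574 (DKC6575) and 8851 (Tietar) in T2 drought, 11177 and 13329 in the T2 control, and 15624 and 14918 at T1. Rubisco activase (rca1) had 6183 and 5195 in T2 drought, 7470 and 7308 in the T2 control, and 10355 and 9312 at T1. Both were lowest in T2 drought and highest at T1, with no overlap between conditions. Fructose-1,6-bisphosphatase, which releases phosphate from a sugar bisphosphate in the Calvin cycle or in cytosolic sucrose synthesis (the title does not say which form this is), had 325 and 270 in T2 drought, 279 and 292 in the T2 control, and 336 and 338 at T1. Its drought and T2 control arrays overlapped, and no array of this gene was far from the others.

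The first comparison asked which of these genes changed with drought at silking. In limma, with the change fitted over both varieties, 1 of 16 probe sets passed an adjusted p of 0.05, CAB2, which was lower in T2 drought; of all probe sets 0.482% were called lower and 0.55% higher, and no photosynthesis probe set was called higher. All 13 bright probe sets (mean log2 signal above 12) had negative log2 changes as deposited, from -0.52 (psad1, SE 0.12, adjusted p = 0.115) to -0.29 (the third lhcb6 probe set, SE 0.10, adjusted p = 0.259), but psbs1 had 0.008 after quantile normalization. None of the 13 passed. At 2-fold, which needs no test across arrays, 1 of 16 was lower in DKC6575 (CAB2, against 5.94% of all) and 2 in Tietar (CAB2 and the dim lhcb6 probe set, against 11.1% of all), while none was higher (8.04% and 8.2% of all). At an unadjusted p of 0.05, 14 of 16 were lower in T2 drought, against 5.9% of all probe sets. These 14 included all 13 bright ones, and 212 of the 608 other bright probe sets were lower at that p too. After cyclic loess 4 of 16 were lower at that p, and after quantile normalization 4. Of all probe sets 998 and 1060 were lower in these fits. Both drought arrays lay below both T2 control arrays for 14 of 16 probe sets, against 20% of all. The median log2 change of the 16 was -0.41, against 0.02 over all probe sets.

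The classes differed little in the drought comparison. Log2 changes of the 6 bright antenna probe sets ran from -0.46 to -0.29, those of the 3 photosystem I genes from -0.52 to -0.49 and those of psbQ and psbs1 from -0.38 to -0.35, while ssu1 had -0.41 and rca1 -0.38. Fructose-1,6-bisphosphatase had 0.05 (SE 0.14, adjusted p = 0.919), and -0.024 after cyclic loess. Over the array as a whole, lower values in T2 drought went with brightness: the median log2 change was -0.39 for the 64 probe sets whose mean log2 signal reached 14, of which 4 are photosynthesis genes, -0.28 for the 190 between 13 and 14, and 0.05 between 8 and 10. The part of this array-wide trend in the values of the photosynthesis genes was not tested. After cyclic loess the median of the 13 bright probe sets was -0.20 and that of the 608 other bright probe sets -0.04, and CAB2 was again the single call (-2.37, adjusted p = 0.00495). Without the DKC6575 T2 control array, 10 probe sets were called lower in place of 1, with 365 of all probe sets in place of 85. Without an intensity trend in the variance none of 16 was (2 at an unadjusted p of 0.05) and none of all 17621 (779 lower and 823 higher at that p).

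**Figure D3:**
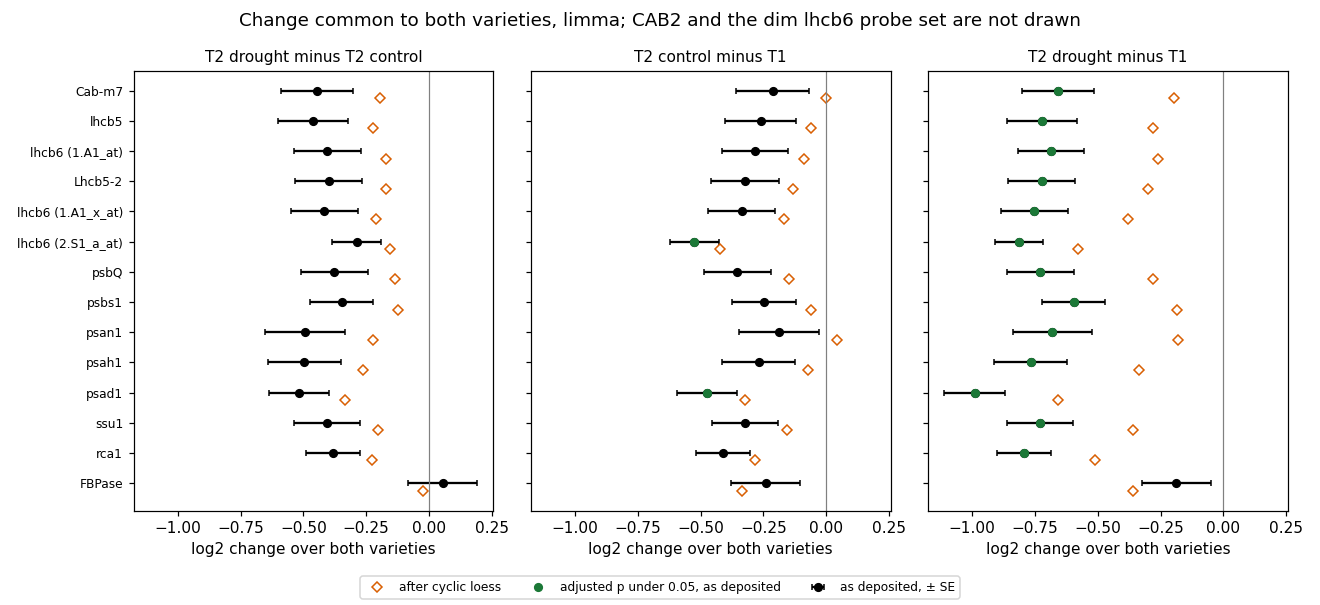
Log2 change over both varieties (horizontal axis) of 14 probe sets in T2 drought against T2 control, T2 control against T1, and T2 drought against T1. Filled points with bars show limma estimates ± SE from the deposited signals, green where the adjusted p was under 0.05, and open diamonds show the estimates after cyclic loess; the 13 bright probe sets lie between -0.99 and -0.60 in the last panel before loess and between -0.66 and -0.18 after it.

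The second comparison asked what changed in irrigated leaves between T1 and silking. Here 3 of 16 probe sets were called lower at T2, against 3.37% of all, and none higher, against 6.23% of all. Among the 13 bright ones 2 were called lower. Of the 608 other bright probe sets 89 were called lower and 27 higher. CAB2 was the remaining call. The third lhcb6 probe set had a log2 change of -0.53 (SE 0.10, adjusted p = 0.0159), and psad1 had -0.47 (SE 0.12, adjusted p = 0.0489). The next was rca1, with -0.41 (SE 0.11, adjusted p = 0.0556). The 10 other bright probe sets had changes from -0.35 to -0.19 with adjusted p from 0.154 to 0.539, and one of them, psan1, had 0.043 after cyclic loess and 0.021 after quantile normalization. T2 control arrays lay below T1 arrays without overlap for 14 of 16 probe sets, against 22.2% of all. At 2-fold CAB2 alone was lower in each variety, against 9.2% of all in DKC6575 and 8.38% in Tietar, and none was higher (8.47% and 11.4% of all).

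The median log2 change of the 16 with development was -0.30, against 0.04 over all probe sets, -0.24 over the 64 brightest and -0.26 over the 190 between 13 and 14. The 2 genes with the largest falls besides CAB2 were less bright than most: the third lhcb6 probe set had a mean log2 signal of 12.49, in a class of brightness (12 to 13) with a median change of -0.20, and psad1 had 13.26. After cyclic loess the median of the 13 bright probe sets was -0.13, against -0.07 for the 608 others, and 2 probe sets of 16 were called, CAB2 (-4.13, adjusted p = 5.69e-05) and the third lhcb6 probe set (-0.42, adjusted p = 0.0238). The call of psad1 was lost there (-0.32, adjusted p = 0.0798). Leaving out the DKC6575 T1 array or the Tietar T1 array left 1 call (48 and 62 of all probe sets lower, against 593 with every array), and leaving out the Tietar T2 control array gave 8 (548 of all). Without the intensity trend there was none (4 lower at an unadjusted p of 0.05, against 1114 of all). Beside these changes, 11 of 15 pollen and profilin probe sets were higher in T2 control leaves, against 6.23% of all. The summed signal over all 15 was 16318 (DKC6575) and 14885 (Tietar) in the T2 control and 14519 and 13309 at T1. Most of this sum came from the profilins PRO4 and prf5, which were not called higher. PRO4 had 5283 and 5153 in the T2 control and 6409 and 6163 at T1, and prf5 had 7273 and 7815, then 7817 and 6783. The largest rise was that of pgl1 (exopolygalacturonase), from 2.51 and 7.06 at T1 to 1139 and 576 in the T2 control. The part of these genes in the result was not tested.

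The widest gap was that between T2 drought and T1. In this comparison, which shares its arrays with the other two, 14 of 16 probe sets fell, against 6.04% of all, and none rose, against 9.95% of all. Only fructose-1,6-bisphosphatase (log2 change -0.19, SE 0.14, adjusted p = 0.436) and the dim lhcb6 probe set (adjusted p = 0.57) did not pass. The lowest after CAB2 were psad1, with -0.99 (1.99-fold, SE 0.12, adjusted p = 0.00243), the third lhcb6 probe set, with -0.81 (SE 0.10, adjusted p = 0.00232), and rca1, with -0.79 (SE 0.11, adjusted p = 0.00361). The smallest fall was that of psbs1, -0.60 (SE 0.13, adjusted p = 0.0179). On the linear scale the 13 bright probe sets held between 49.6% and 67.4% of their T1 signal in DKC6575 droughted leaves (median 61.3%) and between 51.1% and 65% in those of Tietar (median 59.3%).

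Of the 608 other bright probe sets, 318 fell and 20 rose in the same comparison, with a median log2 change of -0.44, against -0.73 for the 13 photosynthesis probe sets. All probe sets with a mean log2 signal between 13 and 14, 7 of the 13 among them, had a median of -0.54, and 66.8% were called lower. Those at 14 and above, with 4 of the 13, had a median of -0.64, and 85.9% were called lower. The medians of the 13 and the 608 shrank after cyclic loess, to -0.30 for the photosynthesis probe sets and -0.13 for the others. The calls were then 5 of 16: CAB2 (-6.49, adjusted p = 3e-06), psad1 (-0.66, adjusted p = 0.00403), the third lhcb6 probe set (-0.58, adjusted p = 0.00503), rca1 (-0.51, adjusted p = 0.00825) and the second lhcb6 probe set (-0.38, adjusted p = 0.0493). Calls of Cab-m7 (-0.20, adjusted p = 0.293), of psan1 (-0.18, adjusted p = 0.37) and of psbs1 (-0.18, adjusted p = 0.274) were lost, with those of 6 more probe sets. Without the DKC6575 T1 array 1 probe set was called, without the Tietar T1 array 2, and without the Tietar T2 drought array 5, where 168, 117 and 569 of all probe sets were lower, against 1065 with every array. Without the intensity trend none was (14 lower at an unadjusted p of 0.05, against 1515 of all).

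**Figure D4:**
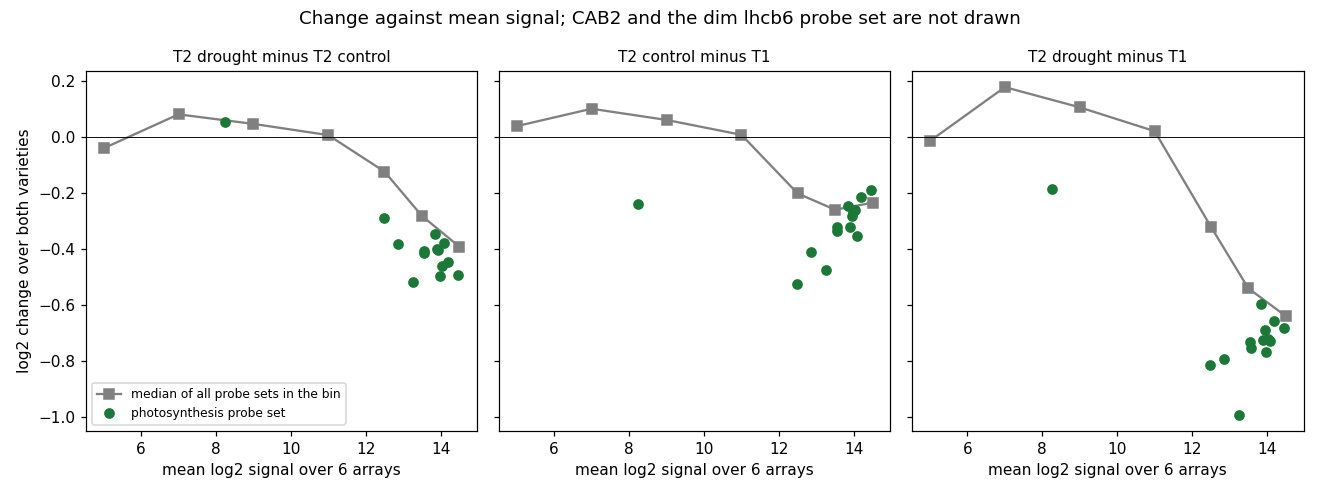
Log2 change over both varieties (vertical axis) against mean log2 signal over the 6 arrays for 14 photosynthesis probe sets (circles), with the median of all probe sets in each class of brightness (squares). The medians of all probe sets bend down above a mean log2 signal of 12, and in T2 drought against T1 the probe sets farthest below them are the third of lhcb6, rca1 and psad1.

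The 13 bright probe sets shared a profile. Over the 6 arrays the Pearson correlation between pairs of them ran from 0.78 to 0.999, with a median of 0.98 over 78 pairs. As the points share arrays and their scaling, this is a description only, and the 608 other bright probe sets had a median correlation of 0.882 with the mean of these 13. CAB2 had 0.923 with that mean, although its fall was far steeper.

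The varieties were compared to ask whether DKC6575 and Tietar leaves differed in these genes. As only DKC6575 carries MON810, the insertion and any other difference between the varieties cannot be told apart. With drought, the log2 differences in Tietar were lower than in DKC6575 for 14 of 16 probe sets, against 51.7% of all and 460 of the 608 other bright ones (75.7%). The 13 bright probe sets kept between 76.3% and 86.5% of their T2 control signal in DKC6575 (median 84.5%) and between 59.1% and 82.3% in Tietar (median 66.5%). The widest gap was at psan1, with a log2 difference of -0.23 in DKC6575 and -0.76 in Tietar. CAB2 went the other way, with -2.74 in DKC6575 and -1.94 in Tietar. From T1 to T2 in irrigated leaves the bright probe sets kept a median of 73.2% in DKC6575 and 90.2% in Tietar. This log2 difference was lower in DKC6575 than in Tietar for 13 of 13, and for 421 of the 608 other bright ones (69.2%). Its medians were -0.45 (DKC6575) and -0.15 (Tietar) for the 13, and -0.30 and -0.16 for the 608. With 1 array per group these differences between the varieties were not tested.

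Both of these gaps are measured against or from the same T2 control arrays. As DKC6575 minus Tietar, the 13 bright probe sets had log2 differences from 0.09 to 0.25 in T2 drought, from -0.40 to 0.13 in the T2 control, and from -0.09 to 0.27 at T1. The number above 0 was 13, 2 and 12 in these conditions as deposited, 12, 3 and 11 after cyclic loess, and 8, 4 and 10 after quantile normalization. As deposited, only the third probe set of lhcb6 (0.13) and rca1 (0.03) were above 0 in the T2 control. A sequence of signs (above 0 in T2 drought, below 0 in the T2 control, above 0 at T1) was seen for 10 of 16 photosynthesis probe sets, 13.4% of all probe sets, and 208 of the 608 other bright ones (34.2%). The other bright ones had median differences of 0.11, -0.07 and 0.03 in these 3 conditions. Over the 3 conditions together no photosynthesis probe set was called different between the varieties (0.0114% of all were called higher in DKC6575 and 0.0397% lower, with 1 of 16 higher at an unadjusted p of 0.05, against 2.34% of all). That one was CAB2, with a log2 difference of 1.05 (SE 0.14, adjusted p = 0.118), higher in DKC6575 in 3 of 3 conditions. It was called when any of the 4 T2 arrays was left out. At 2-fold, CAB2 was higher in DKC6575 in the T2 control alone (5.71% of all were), and the dim lhcb6 probe set was higher in T2 drought (6.54%) and lower in the T2 control (11.7%). No other photosynthesis probe set differed 2-fold between the varieties, also at T1 (6.79% of all were higher in DKC6575 there and 8.51% lower, and 6.6% were lower in T2 drought). The other 15 had differences from -0.31 to 0.16, adjusted p from 0.861 upward.

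**Figure D5:**
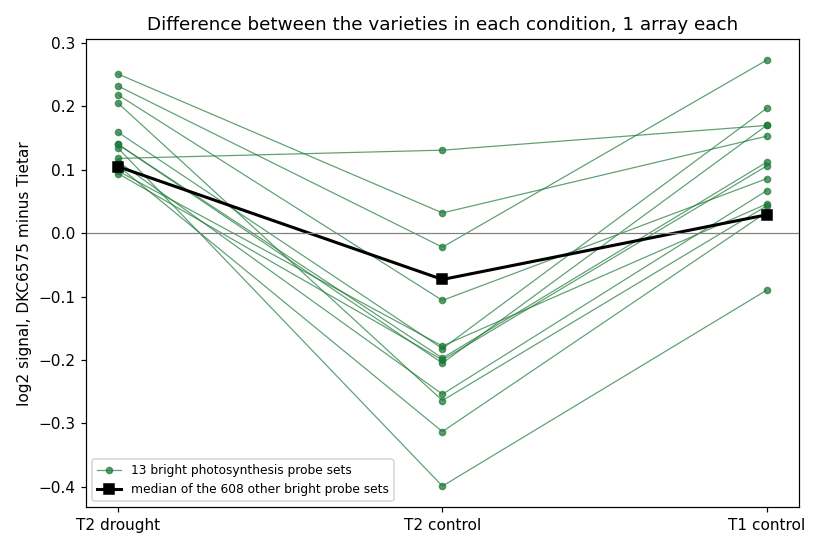
Log2 signal of DKC6575 minus Tietar (vertical axis) in T2 drought, T2 control and T1 for the 13 bright photosynthesis probe sets (thin lines) and the median of the 608 other bright probe sets (thick line), 1 array per variety and condition. As deposited, all 13 lie above 0 in T2 drought, 11 lie below 0 in the T2 control, and 12 lie above 0 at T1; after cyclic loess 12, 10 and 11 do.

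Other genes of the chloroplast gave a mixed picture. Of 22 probe sets for plastid gene expression, protein targeting and assembly, 1 fell with drought (0.482% of all did) and 5 from T1 to T2 (3.37% of all), and none rose in either (0.55% and 6.23% of all). The drought call was glk1, a regulator of genes for photosynthesis and chloroplast development, with 2009 (DKC6575) and 1668 (Tietar) in T2 drought, 2979 and 2766 in the T2 control, and 4331 and 4033 at T1. Its log2 change was -0.65 with drought (adjusted p = 0.0307) and -0.54 with development (adjusted p = 0.0132), and its arrays did not overlap between conditions. The median of all probe sets of like brightness (10 to 12) was 0.01 in either comparison. In contrast, bsd2, which is needed for Rubisco assembly in the bundle sheath, had log2 changes of -0.02 and 0.32 with drought in its 2 probe sets (adjusted p = 0.969 and 0.267). This list was put together after values had been seen.

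Of 3 probe sets for tetrapyrrole synthesis, 1 rose with drought and fell from T1 to T2, the methyltransferase of siroheme synthesis, which serves nitrite and sulfite reduction and not chlorophyll. It had 1085 (DKC6575) and 2091 (Tietar) in T2 drought, 465 and 484 in the T2 control, and 4694 and 4256 at T1 (drought adjusted p = 0.0242). The magnesium chelatase subunit gene chlI, of the chlorophyll branch, had 4867 (DKC6575) and 4221 (Tietar) in T2 drought, 5450 and 5299 in the T2 control, and 6306 and 6312 at T1. Its drought and development changes did not pass (adjusted p = 0.359 and 0.223), but it fell in T2 drought against T1 (-0.48, adjusted p = 0.0192). The remaining probe set, les22, had log2 changes of 0.26 with drought and 0.28 with development (adjusted p = 0.428 and 0.226). In T2 drought against T1 les22 rose by 0.55 (adjusted p = 0.0246). The gene GAPA, for chloroplast glyceraldehyde-3-phosphate dehydrogenase, the only other Calvin cycle enzyme found, had 12192 and 10854 in T2 drought, 14171 and 15610 in the T2 control, and 19618 and 18425 at T1. It fell in T2 drought against T1 (adjusted p = 0.00923) but passed neither of the other comparisons (adjusted p = 0.269 and 0.14). None of 12 ferredoxin and ferredoxin-reductase probe sets and none of 16 C4 probe sets was called with drought by limma, against 0.482% of all probe sets lower. At an unadjusted p of 0.05, 5 ferredoxin probe sets were lower and 1 higher, and 6 C4 probe sets were lower. Of all probe sets 5.9% were lower at that p, and of the 608 other bright ones 212 were. In T2 drought against T1, 8 of the 16 C4 probe sets and 6 of the 12 ferredoxin probe sets fell, and 1 ferredoxin probe set rose, against 6.04% of all probe sets lower, 9.95% higher, and 318 of the 608 other bright ones lower.

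The cell type markers pep1 and me3 were lowest in T2 drought in each variety. The mesophyll marker pep1 (phosphoenolpyruvate carboxylase) had 15679 (DKC6575) and 13901 (Tietar) in T2 drought, 18104 and 24718 in the T2 control, and 24471 and 23725 at T1, so that its T2 control and T1 arrays overlapped. The bundle sheath marker me3 (NADP-malic enzyme) had 8531 and 7502 in T2 drought, 9350 and 11729 in the T2 control, and 13186 and 12285 at T1. Log2 changes with drought were -0.52 and -0.39 in this pair (adjusted p = 0.248 and 0.303). Other mesophyll markers did not all fall. The gene mdh6 (NADP-malate dehydrogenase) had -0.23, and the brightest probe set of Ppdk1 (pyruvate, orthophosphate dikinase) -0.48. One carbonic anhydrase probe set had 0.19, with 144 (DKC6575) and 168 (Tietar) in T2 drought and 143 and 131 in the T2 control. The other probe sets of Ppdk1 and carbonic anhydrase ran from -0.72 to -0.01. None of them passed.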

How the data were processed

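The authors extracted array data by RMA according to the methods and analysed them with Partek. The deposited numbers are linear-scale intensities whose trimmed mean (2% cut from each end) is near 500 on every array, not quantile-normalized as RMA values would be. Intensities were converted to log2, and 113 control probe sets of 17734 were left out. R 4.3.3 and limma 3.58.1 tested changes over both varieties (additive terms for variety and condition, 2 residual degrees of freedom, intensity trend in the prior variance, Benjamini-Hochberg adjustment over 17621 probe sets); differences between single arrays have no test. The number of arrays limits the precision. On simulated data of 17621 probe sets the drought test called 56 of 100 changes of 2-fold, 93 of 100 of 4-fold, and 7 unchanged probe sets.

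Symbols came from the platform annotation (1 symbol for 1452 probe sets, 1377 of them found in the RefSeq gene table of assembly Zm-B73-REFERENCE-NAM-5.0, from which only names were taken), and titles from the study's gene list (2000 single titles), whose columns of fold changes by the authors were not used. The symbols psiP, ATP-D and atp2 do not say enough of their place in the chloroplast and were left out. Values are given for members with the 4 highest mean signals of each class, each called with drought, and the 6 lowest and 6 highest changes with drought and development, which named all 16. Members and lists were chosen with earlier results of these data known. Alternatives tried were the variance trend, filters and floors for dim signals, other normalizations, control probe sets kept, no variety term, 1 probe set per gene, other fold thresholds and baselines, and each array left out. Plots were drawn with Python 3.11.15 and matplotlib 3.10.9.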

Additional observations from a re-analysis of the deposited data

Results flagged for a closer look

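Fructose-1,6-bisphosphatase moved in opposite directions with drought in the varieties, with a log2 difference of 0.223 in DKC6575 and -0.115 in Tietar. The dim lhcb6 probe set (signals from 10 to 74) did so too, with 0.899 in DKC6575 and -2.866 in Tietar with drought, and -0.331 in DKC6575 and 0.615 in Tietar from T1 to T2. For 10 of 16 photosynthesis probe sets DKC6575 lay above Tietar in T2 drought and at T1 and below it in the T2 control. With 1 array per group none of these differences was tested.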

How the results depend on the processing

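No value that passed the test reversed its direction under the alternatives run, but some that had not passed did. The drought change of fructose-1,6-bisphosphatase (0.054) was -0.024 after cyclic loess, with or without the trend, -0.035 after median centring and -0.025 after quantile normalization, and ran from -0.101 to 0.208 with each array left out. That of psbs1 (-0.348) was 0.008 after quantile normalization. The development change of psan1 (-0.188) was 0.043 after cyclic loess, with or without the trend, and 0.021 after quantile normalization, and ran from -0.398 to 0.023 with each array left out. The dim lhcb6 probe set then ran from -2.629 to 0.663 with drought, -1.036 to 1.32 with development and -2.487 to 0.805 in T2 drought against T1. With drought, the count of probe sets called lower (1 of 16, CAB2) became 0 without the intensity trend, with signals below 64 set to 64, with a mean log2 filter of 6 and no trend, without the variety term, after cyclic loess without the trend (chosen after seeing the data), and when only members named by the platform annotation were kept, since CAB2 is then not among them. The development count (3) became 0 without the trend, with signals set to 64 and after loess without the trend, and 1 after quantile normalization. The count in T2 drought against T1 (14) became 0 in those same 3 fits, 5 after cyclic loess and 4 after quantile normalization. The cause was not tested. The fits of all probe sets without the trend, and the one with signals set to 64, called 0 of all 17621 probe sets. With the filter of 6 and no trend, 2 photosynthesis probe sets were called with development and 14 in T2 drought against T1, with 375 lower and 834 higher and 898 lower and 1617 higher among all probe sets kept.

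The median log2 change of the 16 probe sets with drought (-0.411) was -0.208 after cyclic loess, with or without the trend, and -0.124 after quantile normalization, and with development (-0.303) it was -0.139 and -0.067. With each array left out in turn it ran from -0.587 to -0.254 with drought and from -0.483 to -0.146 with development, the counts called lower ran from 1 to 10 with drought, 1 to 8 with development and 1 to 15 in T2 drought against T1, and 0 to 1 probe sets were called higher in DKC6575. Between the varieties 1 was called (CAB2) after median centring. At 1.5-fold, 1 probe set was higher with drought in DKC6575, 9 were lower with drought in Tietar, 2 were lower in development in DKC6575 and 1 was higher in Tietar. With the filter, 1 was lower with drought in Tietar, and with the mean of both T1 arrays as baseline 1 was higher in development in Tietar. Median centring moved the median of all probe sets to -0.156 in T2 drought against T1, with 2085 called lower and 978 higher, against 1065 and 1754 as deposited. The variety term means that conditions were compared within each variety; no pairing by replicate number was possible because the labels give none. The normalizations tried on the order of the arrays and on the difference between the varieties in each condition were chosen after seeing the data.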
